A study of Homo sapiens with 16 samples.

Results

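The OAS, IFIT and MX genes are interferon-induced genes whose products act against viral RNA and viral particles, and 10 of them were examined here: OAS1, OAS2, OAS3 and OASL, IFIT1, IFIT2, IFIT3 and IFIT5, and MX1 and MX2. They were taken by gene symbol from a table of 35993 genes and all 10 passed the filter on low counts that left 21297 genes for testing. RNA-seq had been performed on 4 human bladder cancer lines in long-term culture, all labelled as wild type (253J, J82, RT112 and TCCSUP), after 48 h with CM-1758, an HDAC inhibitor, or with DMSO as vehicle control. The dose was each line's own IC50 and so differed between the lines. TCCSUP cells were grown in EMEM and the other lines in DMEM, both with fetal bovine serum. No interferon was listed among the additions to any culture. There were 8 groups of 2 libraries, and the 2 libraries of a group came from independent experiments. A p-value therefore measures the spread between such pairs only. Whether control and treated libraries of the same number shared an experiment is not stated in the sources used here. Libraries are named by the replicate numbers of their labels, which are 2 and 3 in 253J control, 1 and 3 in 253J treated and in both J82 groups, and 1 and 2 in the remaining groups, and pairs of values are given in that order.

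Interferons are secreted proteins that bind receptors on the cell surface, and the type I receptor signals through the kinases JAK1 and TYK2. Transcription factors such as STAT2 and IRF9 then act in the nucleus on interferon-stimulated response elements, short DNA repeats in the promoters of the induced genes. OAS enzymes are activated by double-stranded RNA and make 2′-5′ oligoadenylates, which act as second messengers against viral RNA, while IFIT proteins bind foreign RNA and hinder its translation, and MX proteins are GTPases that trap viral nucleocapsids. Many tumour cell lines express such genes without added interferon, at levels that differ from line to line.

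Total counts per library ran from 22506431 to 32537104. Levels are given as CPM, the counts of a gene scaled by the TMM-normalized size of the library, and are compared here only for the same gene between libraries. At least 5 of 6 epithelial markers were above 1 CPM in every group, whereas the urothelial list (10 genes) summed to 1927 to 2191 CPM in RT112 control cells and to at most 112 CPM in control cells of the other lines. The leukocyte list (8 genes) summed to at most 22.0 CPM and the endothelial list (4 genes) to at most 13.6 CPM in any library. With CM-1758 the urothelial list summed to 773 to 814 CPM in RT112, and the epithelial list in TCCSUP went from 1227 to 1357 CPM in control to 369 to 466 CPM. In 253J it went from 3178 to 4330 CPM in control to 1851 to 2342 CPM, and the part of these shifts in the results was not tested. Such sums weigh the most abundant genes and do not describe each marker. In RT112, mean UPK1B went from 1407 to 352 CPM and mean KRT20 from 6.52 to 17.3 CPM. In TCCSUP, mean KRT18 went from 969 to 163 CPM and mean KRT19 from 115 to 181 CPM. In 253J, mean KRT18 went from 2326 to 766 CPM and mean KRT19 from 876 to 1064 CPM. Since RNA was pooled from all cells of a culture, fewer expressing cells and less RNA per cell cannot be told apart.

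The promoters of the members are shown because the members differed in how they responded although several carry the same DNA repeat. In RefSeq (GRCh38.p14), 6 of the 10 members had promoter windows of 300 bases, from 250 before to 50 after an annotated start, with 9 windows in all. Both strands were searched for a response element repeat of GAAA, 2 free bases and GAAA, which reads TTTC, 2 free bases and TTTC on the opposite strand. At least 1 match was found in 5 of these 6 genes (OAS3, IFIT1, IFIT3, IFIT5 and MX1) and none in the OAS1 window. Of all 35116 promoter windows, 3.57% held the repeat, which is a share of windows and not of genes. A longer form, with CT after the second GAAA, was held by 0.273% of all windows and by a window of IFIT1, IFIT3, IFIT5 and MX1. For MX1 this was the window of the first start, whose match is not printed, and the window of the last start lacks the longer form. The stretches around the matches lie on the + strand at chr12:112938316-112938473 for OAS3, chr10:89392492-89392544 for IFIT1, chr10:89327826-89327899 and chr10:89332420-89332502 for the first and second IFIT3 start, chr10:89414508-89414567 for IFIT5 and chr21:41431839-41431878 for the last MX1 start. They are written 5′ to 3′ with the matches in capitals:
OAS3: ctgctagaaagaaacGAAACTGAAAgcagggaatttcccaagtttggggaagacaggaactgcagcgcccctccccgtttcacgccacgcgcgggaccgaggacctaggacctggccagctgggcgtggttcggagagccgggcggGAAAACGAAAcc
IFIT1: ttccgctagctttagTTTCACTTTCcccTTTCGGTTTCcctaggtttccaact
IFIT3, first start: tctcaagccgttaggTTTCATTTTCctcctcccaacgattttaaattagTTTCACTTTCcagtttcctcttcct
IFIT3, second start: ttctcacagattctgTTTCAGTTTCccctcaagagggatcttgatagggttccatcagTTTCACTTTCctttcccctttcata
IFIT5: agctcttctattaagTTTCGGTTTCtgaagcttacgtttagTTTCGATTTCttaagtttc
MX1, last start: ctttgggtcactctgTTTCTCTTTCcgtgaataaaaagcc
The IFIT matches were all on the opposite strand, with 2 at each IFIT1 and IFIT3 start and 3 at IFIT5, where the match nearest the gene spans the start and is not printed. Both OAS3 matches were on the strand of the gene, and MX1 had 1 match after its first start and 1 before its last. A match describes letters in this window and does not show that a factor binds there.

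**Figure D1:**
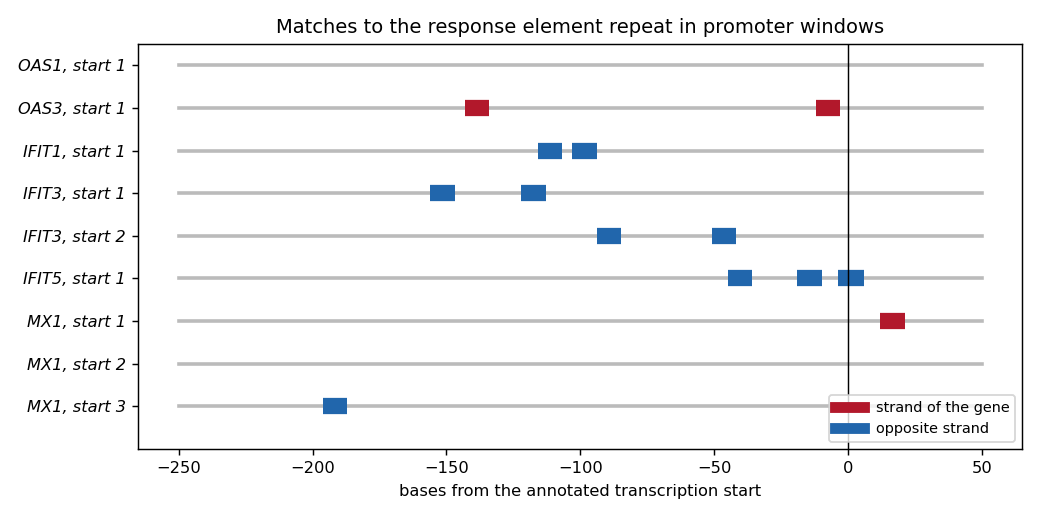
Position of each match to the repeat (coloured block) in bases from the annotated start, for the 9 promoter windows of 6 genes; grey lines mark the whole window. Matches on the strand of the gene are red and those on the opposite strand blue, and all IFIT matches are blue.

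In control cells the 10 genes were at high levels in J82 and TCCSUP and at lower levels in 253J and RT112, except for OAS1 in RT112. OAS1 was at 82.9 and 81.3 CPM in RT112, above TCCSUP at 51 and 41.1 CPM. That difference did not pass the test described below. Together the 10 genes reached 4158 and 3641 CPM in the J82 control libraries and 1356 and 1217 CPM in TCCSUP. They reached 234 and 229 CPM in RT112 and 175 and 159 CPM in 253J. J82 had the highest mean control level of 8 genes, and TCCSUP that of OASL and IFIT5. The lowest mean was in 253J for OAS1, OAS2, OAS3, MX1 and MX2 and in RT112 for OASL and the 4 IFIT genes.

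Control levels were compared between lines by the quasi-likelihood test of edgeR, with p-values adjusted over all tested genes (Benjamini-Hochberg) and a threshold of 0.05. All 10 members were higher in J82 than in 253J, where 53.1% of all tested genes differed in either direction, and all 10 were higher in J82 than in RT112, against 52.1% of all genes. TCCSUP was higher than 253J for all 10 (all genes, 53.1%) and higher than RT112 for 9 (all genes, 51.5%), with OAS1 as the exception. Between J82 and TCCSUP, 6 members were higher in J82 (all genes, 48%), and OASL, IFIT2, IFIT3 and IFIT5 did not pass the test. The spread in this test is shared by all groups. Control libraries of the 2 lines overlapped for IFIT2 but not for OASL, IFIT3 and IFIT5. IFIT3 was at 393 and 335 CPM in J82 and at 183 and 184 CPM in TCCSUP. IFIT5 was at 96.8 and 111 CPM in J82 and at 129 and 128 CPM in TCCSUP. At the low end, 253J and RT112 differed in 7 members (all genes, 54.3%): OAS1, OAS2, MX1 and MX2 were higher in RT112, OASL, IFIT1 and IFIT5 were higher in 253J, and OAS3, IFIT2 and IFIT3 did not pass the test.

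The span from the lowest to the highest line differed between the genes. MX2 had 0 and 0 counts in the 253J control libraries and 5575 and 5092 in J82. OAS2 stood at 0.0724 and 0.230 CPM in 253J and at 372 and 275 CPM in J82. Mean log2 CPM of IFIT5 spanned 2.19 from RT112 to TCCSUP, the smallest range among the 10, and that of IFIT2 spanned 2.81.

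**Figure D2:**
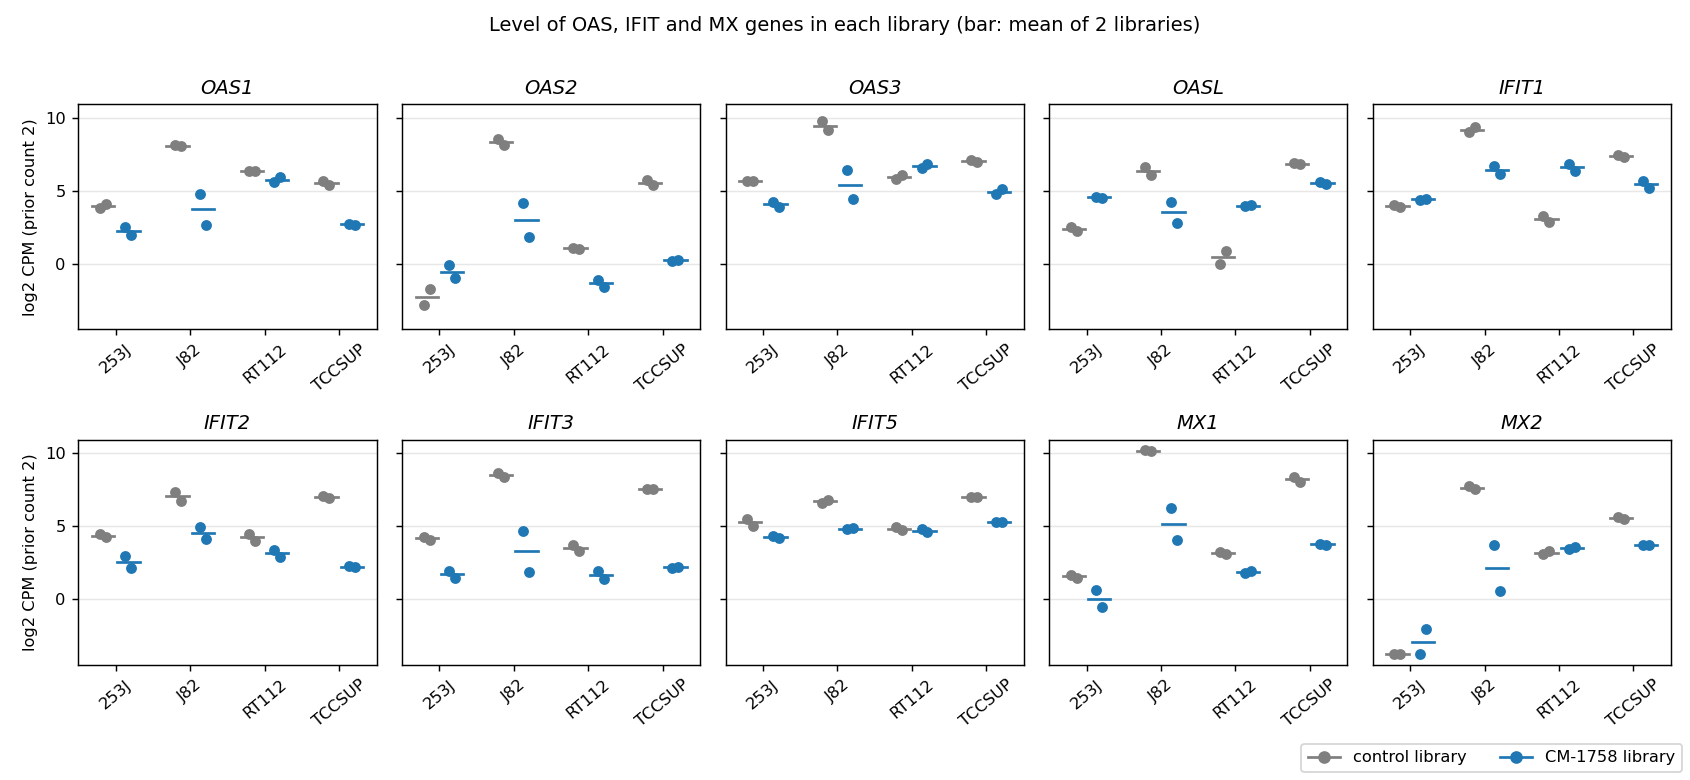
Level of each of the 10 genes in the 16 libraries, as log2 CPM with a prior count of 2, by cell line. Points are libraries (grey for control, blue for CM-1758) and bars are means of 2 libraries. In J82 and TCCSUP all blue points lie below the grey ones. In RT112 the blue points lie above the grey ones for OAS3, OASL, IFIT1 and MX2, of which OASL and IFIT1 passed the test.

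With CM-1758, all 10 genes fell in J82 and in TCCSUP, whereas in 253J and RT112 some members were lower and 1 (253J) and 2 (RT112) were higher. Summed levels went to 425 and 176 CPM in J82, 208 and 197 CPM in TCCSUP and 103 and 89.4 CPM in 253J. In RT112 the sum went to 330 and 322 CPM, above that of control, and IFIT1 alone went from a mean of 8.41 to 98.7 CPM there. The RT112 sum is therefore no measure of the members as a set. In J82, 10 members were lower and 0 higher with an adjusted p below 0.05 in the test described above (edgeR), against 18.5% and 24% of all tested genes. In TCCSUP, 10 were lower and 0 higher, against 22.1% and 32%. In 253J, 5 were lower (OAS1, OAS3, IFIT2, IFIT3 and IFIT5) and 1 higher (OASL), against 22.4% and 28.8%. In RT112, 4 were lower (OAS2, IFIT2, IFIT3 and MX1) and 2 higher (OASL and IFIT1), against 20.2% and 27.4%. The 1 of 10 members higher in 253J and 2 of 10 in RT112 lie below the shares of all genes that were higher.

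Median log2 fold changes of the 10 genes in 253J, J82, RT112 and TCCSUP were -1.26, -3.87, -0.36 and -2.46, beside 0.10, 0.05, 0.12 and 0.20 over all tested genes. At the study's threshold, a log2 fold change past 2 and an adjusted p under 0.01, 9 members were lower in J82 (all genes, 1.24%) and 6 in TCCSUP (all genes, 3.31%). In 253J, 1 was lower (all genes, 3.5%) and 1 higher (all genes, 9.43%), and in RT112 0 were lower (all genes, 1.39%) and 2 higher (all genes, 11.4%). No member was higher at that threshold in J82 or TCCSUP, where 8.81% and 14.2% of all genes were. IFIT2 and IFIT3 were the members called lower in all 4 lines at an adjusted p under 0.05.

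The calls in RT112 and 253J rested on few libraries and on the spread shared by all groups. Without RT112 control replicate 1, or without RT112 treated replicate 2, 0 members were lower in RT112. Without 253J treated replicate 3, 3 were lower in 253J, where OAS1 and OAS3 no longer passed. In a fit without the J82 libraries, chosen after seeing the data, 6 members were lower and 4 higher in 253J (all genes, 23.9% and 32.3%), and 5 were lower and 3 higher in RT112 (all genes, 22% and 31.7%). The 4 higher in 253J included MX2, with 5 counts in treated replicate 3 and 0 in the other 253J libraries. A call made only in that fit, here or below, is given as a description.

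**Figure D3:**
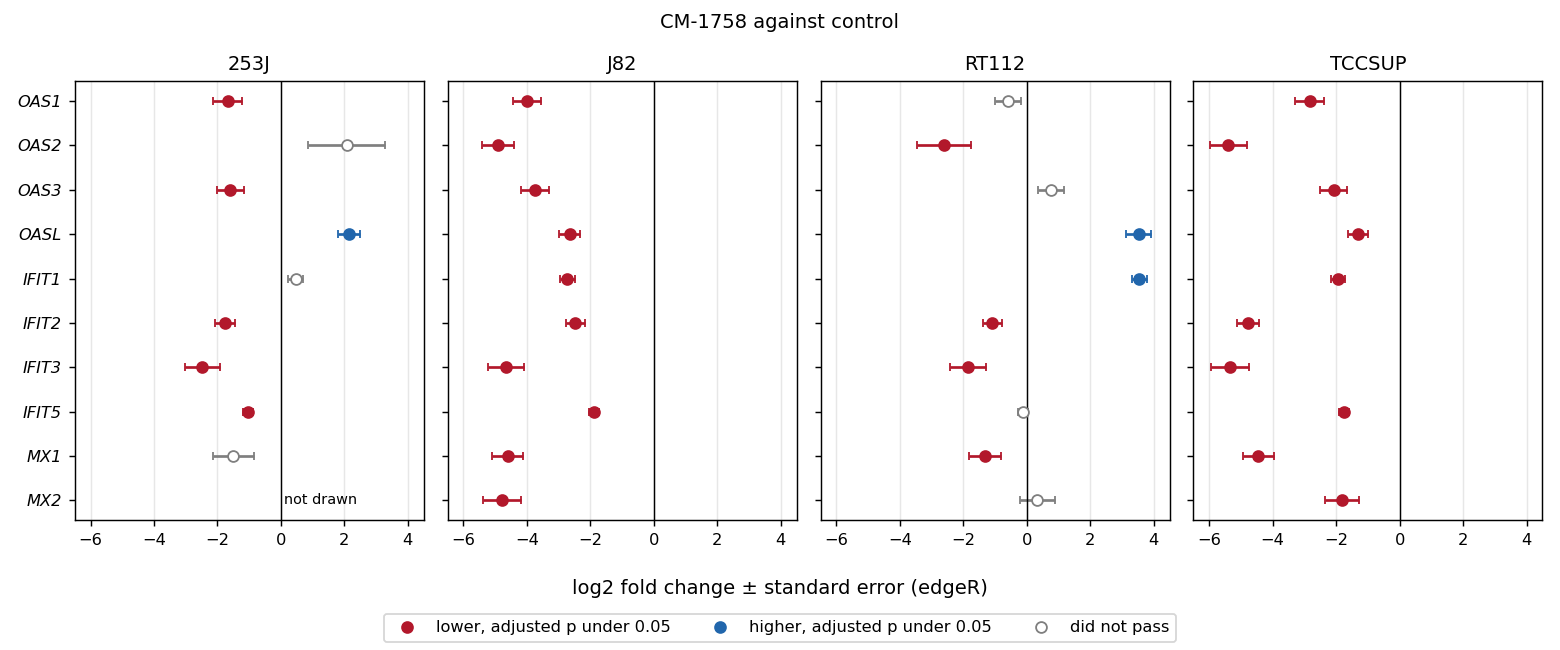
Log2 fold change of CM-1758 against control for each gene and cell line, with 1 standard error from edgeR. Red points are lower and blue points higher at an adjusted p under 0.05, open points did not pass, and MX2 in 253J, with 5 counts in 1 of 4 libraries, is not drawn.

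OAS1, an oligoadenylate synthetase, fell in 3 of the lines. In J82 it went from 283 and 261 CPM to 27.9 and 6.19 CPM (log2 fold change -4.00 ± 0.45 SE, edgeR adjusted p = 7.11e-06). In TCCSUP it went from 51 and 41.1 to 6.66 and 6.25 CPM (log2 fold change -2.83 ± 0.45 SE, edgeR adjusted p = 9.93e-05). The groups did not overlap in either line, and the means were 16-fold and 7.13-fold lower. Such separation was common with 2 libraries a group: of all tested genes, both treated libraries lay below both control libraries for 32.1%, 27.9%, 32.5% and 33.1% and above them for 40.9%, 34.8%, 41.8% and 45.4% (253J, J82, RT112, TCCSUP). In 253J the gene was at 13.8 and 17 CPM in control and 5.74 and 3.88 CPM with CM-1758 (log2 fold change -1.68 ± 0.46 SE, edgeR adjusted p = 0.00618). RT112 kept the highest treated level, from 82.9 and 81.3 to 47.4 and 61.5 CPM, and the difference did not pass the test (log2 fold change -0.59 ± 0.40 SE, edgeR adjusted p = 0.242), although it did without the J82 libraries (adjusted p = 0.0127, edgeR).

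OAS2, which makes oligoadenylates as OAS1 does, had the lowest log2 fold change of the OAS genes in J82, RT112 and TCCSUP. Levels of 372 and 275 CPM in J82 control went to 18 and 3.42 CPM (log2 fold change -4.92 ± 0.50 SE, edgeR adjusted p = 2.62e-06). In TCCSUP, 52.7 and 42.1 CPM went to 1.09 and 1.14 CPM (log2 fold change -5.41 ± 0.58 SE, edgeR adjusted p = 2.57e-06). These were 30.1-fold and 42.6-fold differences of the means. In RT112 the gene was low, with 64 and 58 control counts and 10 and 7 treated counts (log2 fold change -2.61 ± 0.84 SE, edgeR adjusted p = 0.0184). In 253J it had 2 and 6 counts in control and 22 and 13 with CM-1758, and the difference did not pass (log2 fold change 2.07 ± 1.21 SE, edgeR adjusted p = 0.171).

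OAS3, the synthetase with the longest chain of the family, fell in 253J, J82 and TCCSUP. It went from 862 and 555 to 84.8 and 21.3 CPM in J82 (log2 fold change -3.74 ± 0.44 SE, edgeR adjusted p = 1.06e-05). TCCSUP levels were 137 and 125 CPM in control and 27.8 and 33.9 CPM with CM-1758 (log2 fold change -2.08 ± 0.42 SE, edgeR adjusted p = 0.000703). In 253J, 51.2 and 51.8 CPM became 19.1 and 15 CPM (log2 fold change -1.59 ± 0.42 SE, edgeR adjusted p = 0.00502). The 3 falls had no overlap between control and treated libraries. RT112 values were 55.9 and 67.1 CPM in control and 95.8 and 113 CPM with CM-1758, without overlap but not past the threshold (log2 fold change 0.76 ± 0.40 SE, edgeR adjusted p = 0.132). Without the J82 libraries this difference passed (log2 fold change 0.80, edgeR adjusted p = 0.000384).

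OASL, which lacks synthetase activity and acts on the RNA sensor RIG-I, rose in the 2 lines with low control levels and fell in the others. In RT112 it rose from 0.915 and 1.80 CPM to 15.2 and 15.9 CPM, 11.5-fold by the means (log2 fold change 3.52 ± 0.41 SE, edgeR adjusted p = 7.05e-06). In 253J it rose from 5.68 and 4.75 to 24.2 and 22.2 CPM, 4.45-fold (log2 fold change 2.15 ± 0.35 SE, edgeR adjusted p = 0.000113). Treated libraries of these lines were all above control. J82 libraries went from 97.1 and 66.6 to 19 and 6.97 CPM (log2 fold change -2.66 ± 0.34 SE, edgeR adjusted p = 1.89e-05). TCCSUP libraries went from 118 and 111 to 48.1 and 44.6 CPM (log2 fold change -1.31 ± 0.31 SE, edgeR adjusted p = 0.00272). With CM-1758, OASL was higher in 253J than in J82 (log2 difference 0.84 ± 0.33 SE, edgeR adjusted p = 0.0404), the reverse of the control order.

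IFIT1, which recognises RNA without the methyl marks of a host cap, had the highest log2 fold change of the 10 genes in RT112. There it rose from 9.67 and 7.15 CPM to 115 and 82 CPM, 11.7-fold by the means (log2 fold change 3.55 ± 0.25 SE, edgeR adjusted p = 5.95e-08). In J82 it fell from 505 and 641 to 102 and 70.6 CPM (log2 fold change -2.73 ± 0.23 SE, edgeR adjusted p = 4.84e-07). In TCCSUP it fell from 174 and 159 to 50.7 and 36.4 CPM (log2 fold change -1.94 ± 0.23 SE, edgeR adjusted p = 5.47e-06). Treated RT112 libraries thus reached the range of the treated J82 libraries. The difference between the 2 lines did not pass the test (log2 difference -0.19 ± 0.22 SE, edgeR adjusted p = 0.481). In 253J, 15.9 and 15 CPM in control and 20.8 and 21.9 CPM with CM-1758 did not overlap but did not pass (log2 fold change 0.47 ± 0.23 SE, edgeR adjusted p = 0.103).

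IFIT2 and IFIT3, which form complexes with IFIT1, fell in RT112 although IFIT1 rose there. IFIT2 went from 21.9 and 16 to 10.3 and 7.47 CPM in RT112 (log2 fold change -1.09 ± 0.30 SE, edgeR adjusted p = 0.00797). IFIT3 went from 13.1 and 9.89 to 3.72 and 2.59 CPM (log2 fold change -1.86 ± 0.57 SE, edgeR adjusted p = 0.014). Neither pair of groups overlapped, but without RT112 control replicate 1 the adjusted p values were 0.0798 and 0.0703 (edgeR), and without RT112 treated replicate 2 they were 0.0831 and 0.0986. In 253J, IFIT2 went from 21.5 and 19.1 to 7.60 and 4.35 CPM (log2 fold change -1.77 ± 0.31 SE, edgeR adjusted p = 0.000232). IFIT3 there went from 18.9 and 16.6 to 3.80 and 2.63 CPM (log2 fold change -2.47 ± 0.56 SE, edgeR adjusted p = 0.00188), the single fall past the study's threshold in that line.

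Both genes fell in TCCSUP and J82 as well. IFIT3 went from 183 and 184 to 4.42 and 4.60 CPM in TCCSUP, 40.6-fold lower (log2 fold change -5.34 ± 0.59 SE, edgeR adjusted p = 3.39e-06). IFIT2 went from 131 and 120.1 to 4.68 and 4.52 CPM, 27.3-fold lower (log2 fold change -4.77 ± 0.34 SE, edgeR adjusted p = 5.48e-08). The replicates of treated TCCSUP lay close together for both. In J82, IFIT3 went from 393 and 335 to 25.2 and 3.62 CPM (log2 fold change -4.66 ± 0.55 SE, edgeR adjusted p = 1.13e-05). IFIT2 there went from 164 and 106 to 31.2 and 17.2 CPM (log2 fold change -2.48 ± 0.30 SE, edgeR adjusted p = 1.17e-05). The fall of IFIT2 was larger in TCCSUP than in each other line. Its difference from J82 was 2.30 ± 0.42 SE on the log2 scale (edgeR adjusted p = 0.0012), whereas for IFIT3 that difference was 0.68 ± 0.72 SE and did not pass (adjusted p = 0.585).

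IFIT5, an RNA-binding family member, had the smallest range of log2 fold changes over the lines among the 10 genes. It went from 96.8 and 111 to 27.6 and 28.6 CPM in J82 (log2 fold change -1.89 ± 0.16 SE, edgeR adjusted p = 5.26e-07). TCCSUP levels went from 129 and 128 to 38.1 and 38.7 CPM (log2 fold change -1.74 ± 0.16 SE, edgeR adjusted p = 5.52e-07). Those of 253J went from 45 and 32.1 to 19.5 and 18.1 CPM (log2 fold change -1.03 ± 0.16 SE, edgeR adjusted p = 7.49e-05). The groups did not overlap in these 3 lines. In RT112, where they did overlap, control libraries had 30.3 and 25.9 CPM and treated libraries 27.6 and 23.7 CPM (log2 fold change -0.13 ± 0.16 SE, edgeR adjusted p = 0.525), and scaling by library size only turned the sign of this value.

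MX1, the cytoplasmic MX GTPase, fell in J82 from 1174 and 1106 CPM to 76.5 and 16.8 CPM, 24.4-fold by the means (log2 fold change -4.61 ± 0.49 SE, edgeR adjusted p = 4.03e-06). In TCCSUP it fell from 330.4 and 262 to 13.8 and 13.3 CPM, 21.9-fold (log2 fold change -4.45 ± 0.49 SE, edgeR adjusted p = 3.55e-06). Both falls were of more than 1 order of magnitude on the CPM scale. RT112 values went from 9.28 and 8.50 to 3.48 and 3.66 CPM (log2 fold change -1.32 ± 0.50 SE, edgeR adjusted p = 0.0426), a call that was lost under RLE normalization (adjusted p = 0.056) and without any 1 of the 4 RT112 libraries. In 253J, 87 and 70 counts in control and 38 and 18 with CM-1758 did not pass (log2 fold change -1.50 ± 0.64 SE, edgeR adjusted p = 0.0641), but did without the J82 libraries (adjusted p = 0.000717, edgeR).

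MX2, the MX GTPase at the nuclear envelope, fell in J82 from 212 and 185 to 13 and 1.42 CPM (log2 fold change -4.79 ± 0.59 SE, edgeR adjusted p = 2.29e-05). In TCCSUP it fell from 48.5 and 44.6 to 13.2 and 13.3 CPM (log2 fold change -1.81 ± 0.53 SE, edgeR adjusted p = 0.0103). The TCCSUP call was lost in DESeq2 with all groups (adjusted p = 0.0872) and without TCCSUP treated replicate 1 or replicate 2. In RT112 the gene was at 8.46 and 9.55 CPM in control and 10.8 and 11.9 CPM with CM-1758 (log2 fold change 0.34 ± 0.54 SE, edgeR adjusted p = 0.655). Treated TCCSUP libraries, at 13.2 and 13.3 CPM, thus lay above the treated RT112 libraries without overlap. The difference did not pass the test, whose spread is shared by all groups (log2 difference -0.22 ± 0.54 SE, edgeR adjusted p = 0.758). In 253J, 0 counts were found in both control libraries and in treated replicate 1, and 5 counts in treated replicate 3, and no fold is given.

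The effect of CM-1758 differed between the lines for all 10 genes by the F test of the interaction (edgeR, Benjamini-Hochberg), with adjusted p values from 2.05e-08 for IFIT1 to 0.00371 for IFIT3, and 51.9% of all tested genes passed it. Between J82 and RT112 the effect differed for 9 members (all genes, 22.2%), all but OAS2, and in each case the log2 fold change was lower in J82. Between RT112 and TCCSUP it also differed for 9 members, all but OAS2 (all genes, 27.5%). IFIT1 differed most in both, by -6.28 ± 0.34 SE (edgeR adjusted p = 3.42e-08) and 5.49 ± 0.33 SE (adjusted p = 3.86e-08). The pair 253J and J82 differed for 8 (all genes, 30%) and the pair 253J and TCCSUP for 7 (all genes, 28.6%).

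Between J82 and TCCSUP, 4 effects differed (all genes, 22.2%): OAS3, OASL and MX2 fell further in J82 (edgeR adjusted p = 0.0499, 0.0422 and 0.011), and IFIT2 fell further in TCCSUP. Between 253J and RT112, 4 differed (all genes, 30%). OAS3, IFIT1 and IFIT5 had the higher log2 fold change in RT112, and OAS2 had it in 253J. OASL rose in both lines, and the difference between its rises did not pass (log2 difference -1.37 ± 0.54 SE, edgeR adjusted p = 0.0671).

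By the range of mean log2 CPM, the 4 lines were closer together in these genes with CM-1758 than in control. The range of mean log2 CPM over the 4 lines had a median of 5.54 over the members in control and 2.46 with CM-1758, and was narrower for 10 of 10 members. Over all tested genes the median range was 1.56 in control and 1.68 with CM-1758, and 53.2% were narrower. The range of OASL went from 6.40 to 2.00, and that of IFIT1 from 6.08 to 2.18. Those of OAS1 and IFIT2 narrowed least, from 4.14 to 3.49 and from 2.81 to 2.31. The control ranges of OAS2 and MX2, 10.6 and 11.4, start from 253J libraries with 2 and 6 and with 0 and 0 counts. Between J82 and TCCSUP the number of members that differed rose, from 6 in control to 8 with CM-1758.

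In treated cells, by the same edgeR test, 253J and J82 differed for 10 members (all genes, 54.3%), with J82 higher for 9 and 253J higher for OASL. RT112 was higher than 253J for 6 (all genes, 58%) and TCCSUP higher than 253J for 5 (all genes, 53.9%). Between J82 and RT112, 5 differed (all genes, 54.2%), with OAS2, IFIT2, IFIT3 and MX1 higher in J82 and OAS1 higher in RT112. J82 and TCCSUP differed for 8 (all genes, 52.3%), of which OASL and IFIT5 were higher in TCCSUP. RT112 and TCCSUP differed for 7 (all genes, 51.9%), with OAS1, OAS3, IFIT1 and IFIT2 higher in RT112 and OASL, IFIT5 and MX1 higher in TCCSUP. The counts of 6, 5 and 5 lie near the shares of all genes. For IFIT2, TCCSUP had the second highest mean in control and the lowest with CM-1758, where its difference from 253J did not pass the test.

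The treated J82 libraries stood apart from each other in these genes. Treated replicate 1 was above treated replicate 3 for 9 of the 10 genes, by a median ratio of 4.21, and by more than 1 on the log2 scale for 7 of them, against 9.54% of all tested genes. The largest difference was that of MX2, at 13 and 1.42 CPM. IFIT5 was nearly level between the replicates, at 27.6 and 28.6 CPM, and IFIT1 differed by less than IFIT2 and IFIT3, at 102 and 70.6 CPM. The median absolute log2 difference of the members was 2.07 in this group and 0.0632 to 0.538 in the other 7 groups. Of 40 other interferon-induced genes, 39 were higher in treated replicate 1, with a median log2 difference of 0.92, while the median over all tested genes was 0.

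The falls in J82 were seen for all 10 genes with either treated library alone. Without treated replicate 1 the median log2 fold change of the 10 genes was -5.18, and without treated replicate 3 it was -3.17. With 1 library left, the treated group adds no spread of its own to the test, so only the size of the change is given. Both treated libraries lay below both control libraries for all 10 genes, as for 27.9% of all tested genes. The total counts of treated replicates 1 and 3 were 28723648 and 31547585, and 13.2% and 16.05% of their counts fell on 7 abundant small noncoding RNA genes. Whether either value has a part in the difference was not tested.

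**Figure D4:**
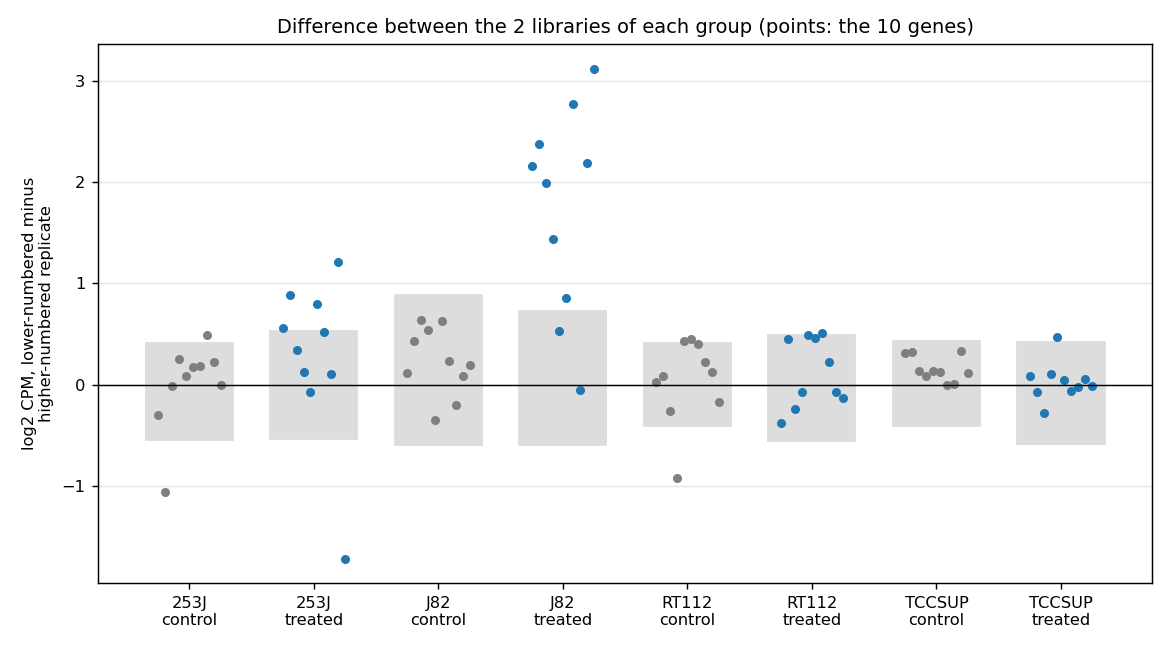
Difference in log2 CPM between the 2 libraries of each group, the lower-numbered replicate minus the higher-numbered one, for the 10 genes (points) in the order OAS1, OAS2, OAS3, OASL, IFIT1, IFIT2, IFIT3, IFIT5, MX1, MX2. Grey boxes span the 5th to 95th percentile of genes whose mean log2 CPM in the group was above 0, and 7 points of the treated J82 group lie above 1.

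Upstream of these genes, few interferon genes were detected. Of 21 interferon ligands, 2 (IFNB1 and IFNE) passed the filter on low counts. IFNB1, interferon beta, had 47 and 15 counts in the J82 control libraries and 6 and 8 with CM-1758 (log2 fold change -2.24 ± 0.76 SE, edgeR adjusted p = 0.0306). In the other lines it had at most 7 counts in any library. IFNE, interferon epsilon, was lower in 253J (log2 fold change -1.38 ± 0.34 SE, edgeR adjusted p = 0.00444) and was not called in the other lines.

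Among 9 receptor and kinase genes, the lower ones numbered 5, 1, 1 and 4 and the higher ones 0, 1, 1 and 1 (253J, J82, RT112 and TCCSUP in this order). Of all tested genes, 22.4%, 18.5%, 20.2% and 22.1% were lower and 28.8%, 24%, 27.4% and 32% higher in these lines, so 1 of 9 was no more than the share of all genes. IFNAR1, a chain of the type I interferon receptor, had log2 fold changes of -0.68 (253J) and -0.21 (J82), of which the first passed (edgeR adjusted p = 0.00143 and 0.301). TYK2 fell in J82 (log2 fold change -0.49 ± 0.12 SE, edgeR adjusted p = 0.00406) and in TCCSUP (log2 fold change -0.88 ± 0.12 SE, edgeR adjusted p = 2.73e-05). JAK1 fell in 253J and TCCSUP, with log2 fold changes of -0.70 and -0.72, and rose in RT112, with 0.56 (edgeR adjusted p = 0.000434, 0.000363 and 0.00312).

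Among the transcription factor genes, STAT2 and IRF9, whose products act together at the response element, rose in 253J and RT112 and fell in J82 and TCCSUP. STAT2 went from 82.3 and 70.8 to 138 and 132 CPM in RT112 (log2 fold change 0.82 ± 0.16 SE, edgeR adjusted p = 0.0007). In 253J it went from 53 and 55.3 to 107 and 129 CPM (log2 fold change 1.12 ± 0.16 SE, edgeR adjusted p = 3.78e-05). IRF9 went from 82.1 and 88.5 to 16.8 and 9.14 CPM in J82 (log2 fold change -2.72 ± 0.21 SE, edgeR adjusted p = 2.61e-07). In 253J and RT112, then, STAT2 and IRF9 rose together with OASL while IFIT2 and IFIT3 fell. IRF5 went the other way from these in 3 lines: it fell in 253J (log2 fold change -0.72) and rose in J82 and TCCSUP (1.30 and 2.46), while RT112 had a log2 fold change of -0.12 (edgeR adjusted p = 0.0354, 0.00151, 5.68e-05 and 0.772). IRF7, a factor that is itself induced by interferon, rose in 253J and fell in J82 and TCCSUP, with log2 fold changes of 1.90, -3.03 and -1.35 (edgeR adjusted p = 0.000355, 1.25e-05 and 0.00668), and had 0 counts in each RT112 library. IRF1 rose in RT112 and fell in J82, with log2 fold changes of 0.88 and -0.84 (edgeR adjusted p = 0.0107 and 0.0151), and passed in neither 253J nor TCCSUP. IRF3, which is activated without a change in its RNA, passed in no line, with log2 fold changes from -0.08 to 0.23.

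Of 6 feedback inhibitors, 4 were higher and 1 lower in 253J and in RT112, 3 were lower and 2 higher in J82, and 2 were lower and 2 higher in TCCSUP. The 2 higher of 6 in J82 and in TCCSUP lie near the share of all tested genes (24% and 32%), and of all genes 28.8% were higher in 253J, 27.4% were higher in RT112 and 18.5% were lower in J82. USP18, which blocks signalling at the type I receptor, was the one lower in all 4 lines, with log2 fold changes of -0.96, -3.58, -0.78 and -1.49 (edgeR adjusted p = 0.00519, 1.02e-07, 0.0284 and 0.000134). ISG15, a ubiquitin-like protein that stabilises USP18, had log2 fold changes of 1.66, -3.42, 2.37 and -1.20 (adjusted p = 9.07e-05, 2.92e-07, 5.69e-06 and 0.00105).

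PDE12, which degrades oligoadenylates, the products of OAS1, OAS2 and OAS3, rose in 253J, J82 and TCCSUP, with log2 fold changes of 1.34, 0.60 and 0.38 (edgeR adjusted p = 6.21e-07, 0.00114 and 0.017). In TCCSUP and J82 these synthetases fell while PDE12 rose.

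Of 40 other interferon-induced genes, all of which were tested, 19 were lower and 4 higher in 253J, 39 and 0 in J82, 7 and 11 in RT112, and 35 and 2 in TCCSUP. Of all tested genes, 22.4%, 18.5%, 20.2% and 22.1% were lower and 28.8%, 24%, 27.4% and 32% higher in these lines, and the RT112 counts lie near these shares. Their median log2 fold changes were -0.51, -2.38, 0.05 and -1.83. The genes named below were taken by the mean fitted log2 fold change over the 4 lines, with IFITM1, RTP4 and TRIM22 at the low end and LAMP3, CXCL11 and CXCL10 at the high end. For all of them but TRIM22 that mean includes a line where the libraries of 1 group or both had at most 3 counts each, so it does not rank their changes. TRIM22, an antiviral ubiquitin ligase, went from 66.2 and 63.1 to 2.66 and 2.05 CPM in TCCSUP (log2 fold change -4.78 ± 0.42 SE, edgeR adjusted p = 3.39e-07). IFITM1, a membrane protein that blocks virus entry, went from 1232 and 812 to 105 and 24.9 CPM in J82 (log2 fold change -3.98 ± 0.53 SE, edgeR adjusted p = 4.27e-05).

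LAMP3, a lysosomal membrane protein, had 0 counts in both TCCSUP control libraries and 81 and 106 counts with CM-1758, and rose in RT112 from 2.25 and 2.07 to 30.2 and 26.1 CPM (log2 fold change 3.70 ± 0.47 SE, edgeR adjusted p = 2.68e-05). CXCL10, a chemokine for T cells, rose in RT112 from 6 and 5 to 161 and 228 counts (log2 fold change 5.32 ± 0.84 SE, edgeR adjusted p = 0.000161) and fell in J82 from 509 and 229 to 51 and 15 counts (log2 fold change -3.57 ± 0.68 SE, edgeR adjusted p = 0.000807). CXCL11, which binds the same receptor, had 0 and 2 counts in 253J control and 22 and 61 with CM-1758 (log2 fold change 5.14 ± 1.17 SE, edgeR adjusted p = 0.00206). RTP4 had 526 and 318 counts in J82 control and 46 and 7 with CM-1758 (log2 fold change -4.07 ± 0.66 SE, edgeR adjusted p = 0.000288).

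**Figure D5:**
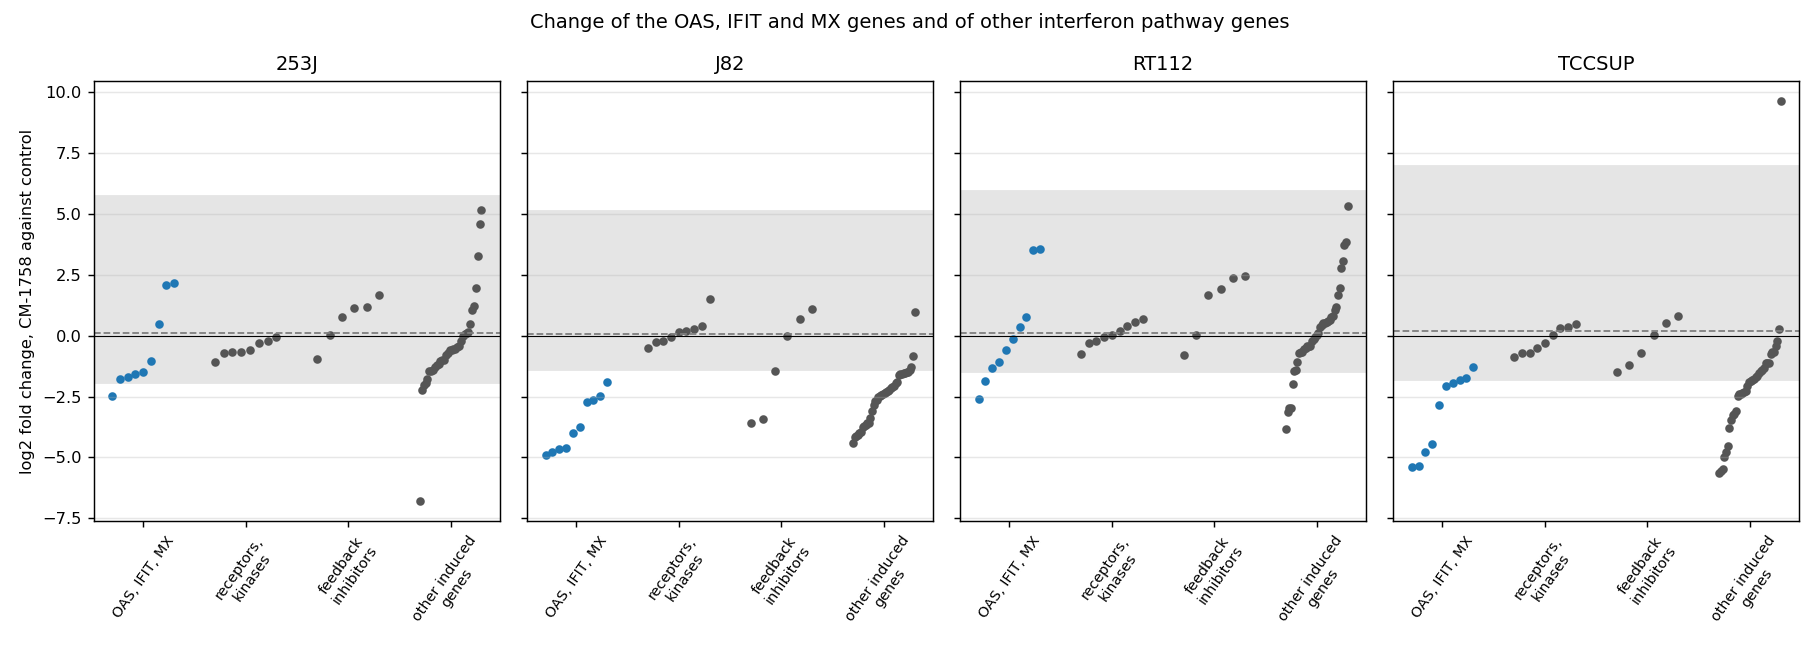
Log2 fold change of CM-1758 against control for the 10 genes (blue) and for genes of 3 other interferon pathway lists (dark grey), 1 point per tested gene with at least 0.5 CPM summed over the 2 group means, in order of value within a list. The light band spans the 5th to 95th percentile and the dashed line the median of all 21297 tested genes; the blue points lie below 0 in J82 and TCCSUP and on both sides of it in 253J and RT112.

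Over the 16 libraries, the members were correlated to different degrees in log2 CPM. The most alike pairs were OAS2 with MX1 and IFIT2 with IFIT3, both with a Pearson's r of 0.955, while r was 0.917 between OAS1 and OAS3 and 0.0728 between OAS1 and OASL. The genes most like the mean of the members were ZC3HAV1 (r = 0.979), ADAR (r = 0.961), DDX60L (r = 0.939), HERC6 (r = 0.937) and SLC15A3 (r = 0.936). These values describe 8 groups of 2 libraries that share cell line and treatment.

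IFIT1B, a paralog of IFIT1, had at most 5 counts in any library. The members lie at 4 places in the genome, with OAS1, OAS3 and OAS2 side by side and OASL apart on chromosome 12, the IFIT genes on chromosome 10 and MX1 and MX2 on chromosome 21. The 3 nearest tested protein-coding genes on each side of each place were taken by their start, 24 in all. Of these, 6 were lower and 5 higher in 253J, 8 and 7 in J82, and 7 and 6 in RT112. In TCCSUP, 11 were lower and 7 higher. Beside the shares of all tested genes (22.4%, 18.5%, 20.2% and 22.1% lower, 28.8%, 24%, 27.4% and 32% higher), the 11 lower in TCCSUP stand furthest above. The 24 genes had median log2 fold changes of -0.02, -0.04, 0.17 and -0.35, beside -1.26, -3.87, -0.36 and -2.46 for the members. LIPA, which encodes lysosomal acid lipase and is among these 24 genes, overlaps the 4 IFIT genes in RefSeq. Whether counting used the strand of the reads is not given in the sources used here. LIPA had log2 fold changes of 0.20, 0.77, 0.56 and -0.30 in 253J, J82, RT112 and TCCSUP, of which those in J82 and RT112 passed the test (edgeR adjusted p = 0.00192 and 0.0133).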

How the data were processed

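RNA was extracted from the cell lines and sequenced by a service provider as stranded total RNA libraries depleted of ribosomal RNA. The values the authors deposited are raw counts, that is, reads per gene symbol and library as whole numbers with no normalization applied. The submitters' processing notes name HISAT2, StringTie and GRCh37. Their versions, their roles and the strand setting are not given in the sources used here. Coordinates are given only for promoters, from RefSeq on GRCh38.p14, since the table holds none. Each of the 16 columns was matched to its sample by its title, and no column was left over.

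Genes were filtered with filterByExpr (minimum count of 10) over the 8 groups, scaled with TMM factors and tested in edgeR 4.0.16 (glmQLFit and glmQLFTest, R 4.3.3), 1 coefficient per group, which left 8 residual degrees of freedom. The spread was shared by all groups, and the common biological coefficient of variation was 0.153. P-values were adjusted by Benjamini-Hochberg over the 21297 tested genes within each contrast, and a gene was called at an adjusted p under 0.05. The SE of a log2 fold change was taken as its size over the root of the F value. TMM library sizes underlie CPM and log2 CPM, the latter with a prior count of 2. The floor was 3 counts. The scripts were tested on simulated data. Alternatives were RLE normalization, library size only, DESeq2 1.42.0 (all groups, and each line alone), edgeR with each line alone, other filters, the study's threshold, 7 abundant small noncoding RNA genes left out, the replicate number as a block and each library left out. The fit without the J82 libraries was chosen after seeing the data. The members, gene lists and tests were chosen with earlier results of these data known. All members are named. Of the 40 other interferon-induced genes, the 3 with the smallest and the 3 with the largest mean log2 fold change over the lines are named, and of the remaining lists, genes were named after their values were seen. The replicate numbers 1 and 3 in J82, and 1 and 2 in RT112 and TCCSUP, were checked for pairing by the correlation of deviations from the group means. Some genes of the pathway lists are not reported here.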

Additional observations from a re-analysis of the deposited data

Results flagged for a closer look

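For all 10 genes the effect of CM-1758 differed between the 4 cell lines by edgeR's quasi-likelihood F test of the interaction with Benjamini-Hochberg adjustment over all tested genes, which 51.9% of these passed. The adjusted p values (edgeR) were 0.00118 for OAS1, 0.00121 for OAS2, 0.000153 for OAS3 and 5.74e-07 for OASL. They were 2.05e-08 for IFIT1, 4.28e-05 for IFIT2, 0.00371 for IFIT3 and 4.75e-05 for IFIT5. For MX1 and MX2 they were 0.00114 and 0.000655. With 2 libraries per group, no group was large enough for a test of single libraries.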

How the results depend on the processing

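In J82, 10 members were lower under every alternative but 2: the study's threshold left 9, and a minimum of 10 counts in every library kept 8 for testing, all lower. In TCCSUP, 9 were lower in DESeq2 with all groups and without treated replicate 1 or 2, where MX2 was lost, and 8 of 8 with that minimum. The interaction was called for 10 members under each alternative run for it, and for 8 of 8 with that minimum. In 253J, 2 members were higher with library size only, with the minimum of 10 counts and in DESeq2 with all groups, 3 in edgeR with each line alone, and 4 without the J82 libraries, against 1 as reported. The 4 included MX2, whose 5 counts came from 1 library. Leaving out 1 library of the line at a time gave 3 to 5 members lower in 253J and 0 to 3 in RT112, with 0 without RT112 control replicate 1 or treated replicate 2. The minimum of 10 counts left 2 lower in RT112. At the study's threshold, 1 was lower in 253J, 0 in RT112 and 6 in TCCSUP. The median log2 fold change ran from -5.18 to -3.17 in J82 and from -2.57 to -2.35 in TCCSUP with 1 library left out, and was -2.15 in TCCSUP with library size only. IFIT5 in RT112 turned to 0.016 with library size only, which raised the median log2 fold change of all genes by 0.27, 0.15, 0.15 and 0.31 in 253J, J82, RT112 and TCCSUP. The cause was not tested for the remaining shifts. Where 1 library of a group was left out, that group added no spread of its own to the test. Deviations of same-numbered libraries had a Pearson's r of 0.218 for J82, 0.0427 for RT112 and 0.0173 for TCCSUP, and 253J shared 1 number. Since not every pair exceeded 0.1, no pairing was used in the main fit. The values of RT112 and TCCSUP do not settle this for J82, where libraries of the same number may be paired. With the replicate block, the genes called in 253J went from 10915 to 8546, those in J82 from 9044 to 9683, those in RT112 from 10150 to 10692 and those in TCCSUP from 11518 to 11965. Of the members, 5 were lower and 1 higher in 253J, 10 and 0 in J82, 4 and 3 in RT112, and 10 and 0 for TCCSUP; OAS3 passed in RT112 (adjusted p = 0.027, edgeR). Of the single-gene values with 1 library left out, 145 kept direction and side of the threshold and 15 lost the call. With 2 libraries per group, no call separates a cell line's response from that of its 2 cultures, and control counts under 10, as of OAS2 and MX2 in 253J, limit what could be detected there.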
